A study of Mus musculus with 21 samples.

Results

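NF-kB is a family of paired transcription factors that cells hold in the cytoplasm bound to inhibitor proteins and release when cytokine or microbial receptors signal. Released NF-kB switches on inflammatory and survival genes, and among its textbook targets are its own inhibitors and some of its own subunits, so that the system limits itself. The genes described here are 9 that were listed by name: the classical inhibitors Nfkbia and Nfkbie, the ubiquitin-editing enzyme gene Tnfaip3 (A20), the nuclear inhibitor-like regulators Nfkbiz and Bcl3, and the subunit genes Rela, Relb, Nfkb1 and Nfkb2. They were found by gene symbol, and 8 of the 9 were measured in each of the study's 2 value tables, out of 18193 genes in NMuMG cells and 12393 in NM18 cells. Nfkb1 was not analysed here. Where a gene had several probe sets, the one with the highest mean over a table's arrays stood for it and the others served as a check.

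Expression was measured on Affymetrix arrays in 2 cultured mouse cell lines given transforming growth factor beta 1 (TGF-b1), in 7 groups of 3 arrays. NMuMG cells, an epithelial line from mouse mammary gland, were seeded 24 h ahead and all received 200 µM 4-thiouridine (4sU), a uridine analogue that marks RNA made while it is present, for 2 h. One set of cultures had 5 ng/ml TGF-b1 in the same medium and one did not, and from both the 4sU-marked fraction, called newly made RNA here, and total RNA were measured, which gave the groups TGF-b1 newly made, control newly made, TGF-b1 total and control total. NM18 cells all received 25 nM siRNA. Their groups were FoxQ1 siRNA with 5 ng/ml TGF-b1 added after 8 h and left for 40 h, ns-siRNA (a scrambled control) with the same TGF-b1, and ns-siRNA without TGF-b1. No group had FoxQ1 siRNA without TGF-b1, so an effect of the siRNA alone was not measured. Free-text notes on array 1 of FoxQ1 siRNA and on array 1 of ns-siRNA alone name both siRNAs and TGF-b1 for either array, so titles and treatment labels decided the groups.

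All values are levels on a log2 scale, where 1 unit is a doubling, and a gene is called changed at a limma adjusted p under 0.05 over all genes of its table. Levels of different genes come from different probes and are not set against each other. Replicate arrays of a group correlated at r = 0.988 to 0.998 across genes, and no deposited columns were identical. Of 10 epithelial marker genes, 6 to 8 lay above the table's median gene in the NMuMG groups and 5 to 6 in the NM18 groups, while endothelial markers did so in 0 of 6 cases in each. Fibroblast markers lay above it in 1 to 2 of 8 (NMuMG) and 0 of 8 (NM18), and leukocyte markers in 1 to 2 of 9 and 0 to 1 of 9. As many genes lie above a median as below it, so the NM18 epithelial count alone does not set these markers apart. Their mean level per NM18 array was 9.16 to 9.59, against a median gene of 7.79. Leukocyte, fibroblast and endothelial markers had means of 5.70 to 6.36 there. As these are bulk cultures, fewer cells expressing a gene and less RNA per cell cannot be told apart. Foxq1, the gene targeted by the siRNA, had 7.57, 8.09 and 7.97 in FoxQ1 siRNA arrays against 9.08, 9.04 and 9.33 in ns-siRNA arrays with TGF-b1, a 2.42-fold lower level (log2 change -1.27 ± 0.16 SE, limma adjusted p = 0.000291).

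Control of feedback genes by NF-kB is known to run largely through kB sites near their starts, so these promoter windows are shown. In RefSeq (GRCm38.p6), windows of 300 bases, from 250 before to 50 after a transcript start, were found for 6 of the 9 genes. A match to the kB consensus, the degenerate decamer bound by NF-kB, was searched on both strands, counting overlapping matches. It occurred in 5 of these 6 genes (Nfkbia, Nfkbie, Tnfaip3, Nfkb2 and Bcl3), and in 8.46% of all 32851 windows in the table (9.55% of the 27025 genes with a window). A match describes letters and not binding. As the listed genes include known feedback targets of NF-kB, setting their share beside that of all windows is not a test. The windows shown belong to the 2 genes called lower under FoxQ1 siRNA (Nfkbia and Rela) and to 2 further feedback regulators, with kB matches in capitals.
Nfkbia, chr12:55492598-55492897, minus strand: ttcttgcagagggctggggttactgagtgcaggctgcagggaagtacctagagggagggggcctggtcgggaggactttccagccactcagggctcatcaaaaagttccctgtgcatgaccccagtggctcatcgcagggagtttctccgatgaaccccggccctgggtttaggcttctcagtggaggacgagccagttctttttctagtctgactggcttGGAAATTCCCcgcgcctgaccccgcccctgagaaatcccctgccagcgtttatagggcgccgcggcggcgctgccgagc
Tnfaip3, chr10:19015361-19015660, minus strand: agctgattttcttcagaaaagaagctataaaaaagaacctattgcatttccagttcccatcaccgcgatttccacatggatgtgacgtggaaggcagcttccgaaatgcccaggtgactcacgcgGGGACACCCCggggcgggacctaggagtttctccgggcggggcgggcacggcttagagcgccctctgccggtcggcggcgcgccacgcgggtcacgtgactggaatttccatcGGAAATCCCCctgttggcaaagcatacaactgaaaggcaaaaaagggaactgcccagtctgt
Bcl3, chr7:19822706-19823005, minus strand: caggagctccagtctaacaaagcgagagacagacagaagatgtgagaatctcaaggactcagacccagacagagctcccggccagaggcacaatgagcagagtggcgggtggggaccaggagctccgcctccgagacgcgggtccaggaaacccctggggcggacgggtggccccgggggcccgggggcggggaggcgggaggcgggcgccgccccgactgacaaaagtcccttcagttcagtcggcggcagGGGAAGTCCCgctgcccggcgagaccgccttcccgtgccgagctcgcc
Rela, chr19:5637291-5637590, plus strand: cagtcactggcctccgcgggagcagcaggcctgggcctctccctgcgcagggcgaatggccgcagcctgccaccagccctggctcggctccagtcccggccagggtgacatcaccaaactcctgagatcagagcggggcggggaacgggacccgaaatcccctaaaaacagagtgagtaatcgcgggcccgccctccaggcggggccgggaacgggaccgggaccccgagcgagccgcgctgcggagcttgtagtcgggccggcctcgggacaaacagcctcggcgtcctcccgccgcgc
Counting the start base as 1, with no base 0, the Nfkbia match lies at -29 to -20. Tnfaip3 has 2 such stretches, at -125 to -116 and at -12 to -3, the first of them matching on both strands, while its second window (chr10:19011914-19012213) holds 0. The Bcl3 match lies at 3 to 12, just inside the transcript, and also matches on both strands. The Rela window holds no match. Nfkb2 has matches in each of its 3 windows, and in its first window they lie at -39 to -29 and -11 to -2. The GC content of the 4 windows shown was 61.0% for Nfkbia, 56.7% for Tnfaip3, 69.0% for Bcl3 and 71.3% for Rela.

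The first question was whether 2 h of TGF-b1 changed the level of these genes in newly made RNA of NMuMG cells. The 4sU and TGF-b1 were present over the same 2 h, so brief changes or changes in decay within that time were not resolved. None of the 8 measured genes was called (6.13% of all genes were, 3.35% higher and 2.79% lower), with log2 changes between -0.25 for Bcl3 and 0.30 for Tnfaip3. Among genes above the table's median level 10.6% were called. By limma, 2 of 8 had p under 0.05 before adjustment (15.8% of all genes), and the count called stayed at 0 under each of the 7 alternative settings and without each single array. The arrays of the 2 groups did not overlap for 4 of 8 genes, a separation seen for 17.5% of all genes.

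Among the inhibitors, Nfkbia, which encodes IkB-alpha, the fast-acting inhibitor that is rebuilt after each NF-kB pulse, had 12.69, 12.84 and 12.56 in TGF-b1 newly made RNA against 12.61, 12.62 and 12.32 in control newly made RNA. The groups overlapped, with array 3 lowest in both, and the change was 0.18 ± 0.13 (SE; 95% interval -0.09 to 0.45, limma adjusted p = 0.586). Its 4 other probe sets changed by 0.11 to 0.19. Nfkbie, which encodes the slower inhibitor IkB-epsilon, had 7.40, 7.67 and 7.32 with TGF-b1 against 7.45, 7.45 and 7.05 in controls, overlapping groups again with array 3 lowest in both (0.15 ± 0.14). Tnfaip3, whose product A20 trims the ubiquitin chains through which receptors signal to NF-kB, had 12.17, 12.23 and 12.16 against 11.82, 11.89 and 11.96 in controls. All 3 TGF-b1 arrays lay above all 3 controls, but the change of 0.30 ± 0.12 was not called (limma adjusted p = 0.228). Its dimmer second probe set had 0.11.

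The nuclear regulators lay below their controls. Nfkbiz, which encodes IkB-zeta, a cofactor that lets p50 dimers turn on secondary inflammatory genes, had 11.60, 11.73 and 11.73 in TGF-b1 newly made RNA against 11.78, 11.93 and 11.96 in controls, without overlap (-0.20 ± 0.12, limma adjusted p = 0.508). Bcl3, a related partner of p50 and p52 dimers, had 7.47, 7.45 and 7.14 against 7.58, 7.66 and 7.56, also without overlap (-0.25 ± 0.12, adjusted p = 0.339). Neither difference passed the test.

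Of the subunits, Rela, which encodes the activating subunit p65, had 9.93, 10.52 and 10.33 in TGF-b1 newly made RNA against 9.73, 10.23 and 10.23 in controls, with array 1 low in both groups (0.20 ± 0.17). Relb, the partner of p52 in the alternative pathway, had 7.18, 7.70 and 7.62 against 7.09, 7.32 and 7.55, with the same low array 1 (0.18 ± 0.15). Both pairs of groups overlapped. Nfkb2, which encodes p100, at once an inhibitor and the precursor of p52, had 7.74, 7.46 and 7.58 against 7.41, 7.27 and 7.35, without overlap (0.25 ± 0.11, limma adjusted p = 0.259).

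**Figure D1:**
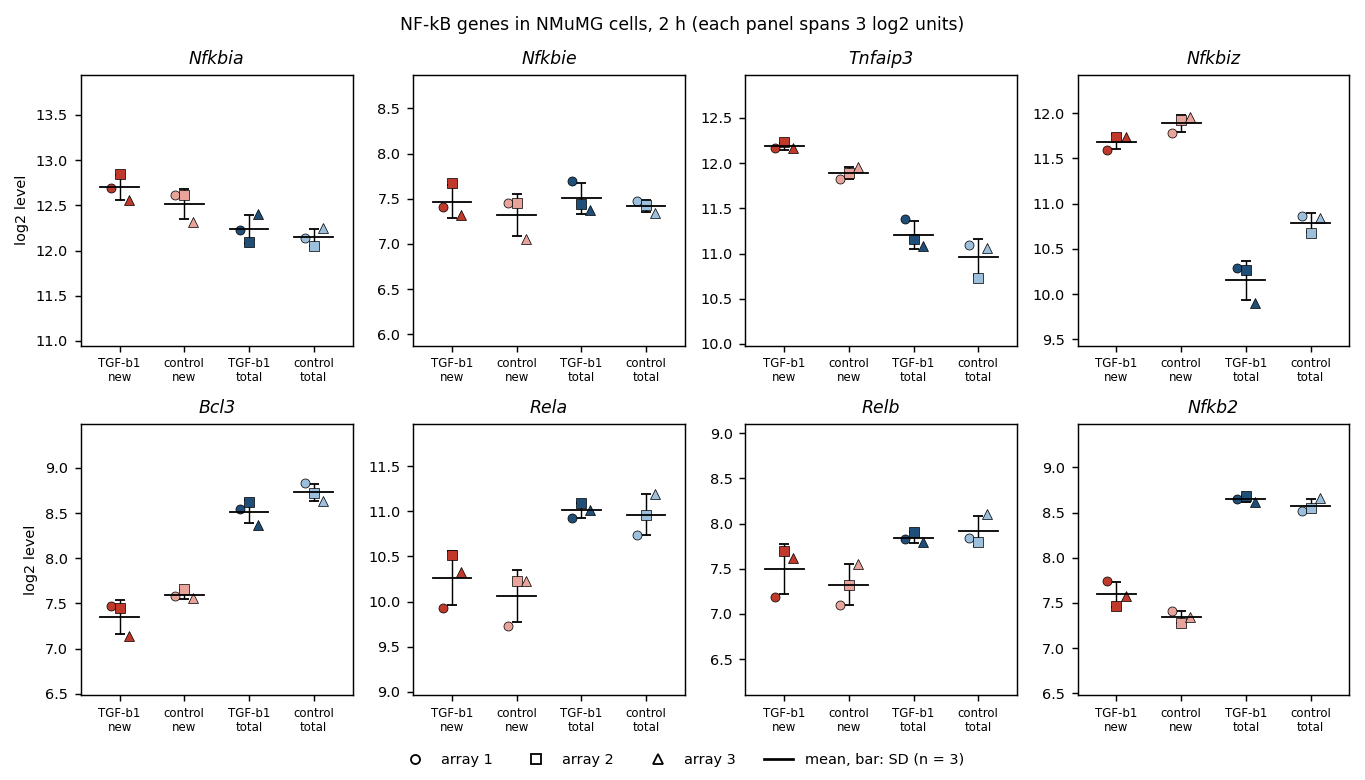
Log2 levels of the 8 measured NF-kB genes in NMuMG cells for the 4 groups, left to right TGF-b1 newly made, control newly made, TGF-b1 total and control total; symbols are single arrays, lines the means and bars the SD (n = 3). Nfkbiz in total RNA is the 1 TGF-b1 effect called, with TGF-b1 arrays at 9.90 to 10.28 below control arrays at 10.67 to 10.86.

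Other genes of the pathway were called at 2 h. The pathway lists, like the 9 genes, were chosen with earlier results of these data known. Setting their counts beside the share of all genes, here and below, is therefore a description and not a test. In newly made RNA 4 of 12 receptor genes rose and 2 fell, where 3.35% of all genes rose and 2.79% fell. With only the arrays compared these were 3 and 0, where 3.74% of all genes were called. The TNF receptor 2 gene Tnfrsf1b rose by 0.98 ± 0.14, the co-stimulatory receptor gene Cd40 by 1.04 ± 0.11 and the interleukin-1 receptor gene Il1r1 by 0.80 ± 0.12, whereas Tlr3, a sensor of double-stranded RNA, fell by 0.83 ± 0.18 (limma adjusted p = 0.00708, 0.0691 with only the arrays compared). Of 9 ligand genes 0 were called by limma (2 had p under 0.05 unadjusted), the nearest being Il18 at -0.32 (adjusted p = 0.226). Only 1 of these 9 lay above the median level of the NMuMG table, so most ligands gave low signal, which limits every ligand count in these cells. Of 17 adaptor and IKK kinase genes 0 rose and 1 fell, Ikbke, an IKK-related kinase, by 0.96 ± 0.14. Among 13 further subunits and inhibitors 2 rose and 0 fell, the subunit gene Rel (0.62, adjusted p = 0.0311) and the A20-binding gene Tnip2 (0.45, adjusted p = 0.0431). Both calls were lost with only the arrays compared (0.143 and 0.127). They were also lost without control array 1 (0.0946 for Rel, 0.108 for Tnip2), control array 2 (0.0968 and 0.17) or TGF-b1 array 3 (0.166 and 0.153). Rel lost its call without TGF-b1 array 2 too (0.11), and Tnip2 without TGF-b1 array 1 (0.129).

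Among 33 NF-kB target genes in the same RNA there were 4 that rose and 6 that fell. The counts were 2 and 4 with only the arrays compared (3.74% of all genes called). They were 2 and 3 without control array 2 (4.17%) or without TGF-b1 array 3 (4.23%). Without TGF-b1 array 1 they were 1 and 4 (5.29%), and without TGF-b1 array 2 they were 1 and 5 (4.53%). With all arrays in the fit, 6.13% of all genes were called. The chemokine genes Ccl20, Cxcl5 and Cxcl1 fell by 3.43 ± 0.15, 2.80 ± 0.16 and 1.30 ± 0.11 (SE), while the cytokine gene Il6 rose by 1.85 ± 0.26. The median change was 0.02 for the target list, against -0.01 for all genes. Same-numbered arrays deviated together within newly made RNA, and with that number as a block the counts were 2 higher and 3 lower of the adaptors and kinases, 3 and 1 of the further subunits and inhibitors, and 7 and 8 of the targets, where 12.8% of all genes were called. The block added no call among the 8 NF-kB genes.

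In total RNA after the same 2 h, 1 of the 8 genes was called, Nfkbiz, which fell (2.48% of all genes were called, 1.46% higher and 1.02% lower). Among genes above the table's median level 4.23% were called. The same 1 gene had an unadjusted p under 0.05 (9.63% of all genes). It had 10.28, 10.27 and 9.90 with TGF-b1 against 10.86, 10.67 and 10.84 in controls, so that every TGF-b1 array lay below every control array. The level was 1.56-fold lower (log2 change -0.64 ± 0.12 SE, 95% interval -0.90 to -0.38, limma adjusted p = 0.00725). The call held without each single array (-0.71 to -0.51, adjusted p up to 0.0462) and in the 7 other settings. Its 2 other probe sets had -0.63 (adjusted p = 0.121) and -0.71 (adjusted p = 0.0199), both without overlap.

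The other 7 genes were not called in total RNA. Bcl3 had 8.55, 8.63 and 8.37 with TGF-b1 against 8.83, 8.73 and 8.64 in controls, without overlap (-0.21 ± 0.12, limma adjusted p = 0.662), so that 2 of 8 genes had separate groups, as did 18% of all genes. Tnfaip3 had 11.38, 11.16 and 11.08 against 11.10, 10.73 and 11.06, where the TGF-b1 arrays were mostly higher but overlapped (0.24 ± 0.12, adjusted p = 0.587). Nfkbia stood at 12.22, 12.10 and 12.40 against 12.14, 12.05 and 12.25 (0.10 ± 0.13), and the groups overlapped. Nfkbie had 7.70, 7.44 and 7.37 against 7.47, 7.44 and 7.34, again overlapping (0.09 ± 0.14). Rela had 10.93, 11.09 and 11.01 against 10.73, 10.96 and 11.19 (0.05 ± 0.17). Relb had 7.83, 7.91 and 7.80 against 7.84, 7.80 and 8.10 (-0.07 ± 0.15). For both subunits control array 3 was the highest value of all 6. Nfkb2 had 8.65, 8.68 and 8.61 against 8.52, 8.55 and 8.66 (0.07 ± 0.11), overlapping by 1 control array.

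The receptor genes Tnfrsf1b (0.90 ± 0.14), Cd40 (0.73 ± 0.11) and Il1r1 (0.66 ± 0.12) rose in total RNA too, 3 of 12 higher and 0 lower, where 1.46% of all genes were higher and 1.02% lower. Among adaptors and kinases 0 of 17 rose and 1 fell, the ubiquitin ligase gene Birc2 (-0.55 ± 0.11). Of targets, 4 rose and 4 fell with only the arrays compared (3.22% of all genes called). Without TGF-b1 array 1, 0 rose and 3 fell (1.73% of all genes called). With all arrays in the fit, 2 of 33 targets rose and 3 fell. Those that fell were Cxcl5 (-2.90 ± 0.16), Ccl20 (-1.88 ± 0.15) and Cxcl1 (-1.74 ± 0.11), and Csf2, a growth factor gene, was among those that rose (0.61 ± 0.13, limma adjusted p = 0.0128). The Csf2 call was lost without control array 2 (0.0614) or 3 (0.07) and TGF-b1 array 1 (0.09) or 3 (0.064). Of 9 ligands and 13 further subunits and inhibitors 0 passed in limma (0 and 2 had p under 0.05 unadjusted). The nearest were Il18 (-0.17, adjusted p = 0.829) and Nkiras1, an inhibitor of IkB breakdown (-0.44, adjusted p = 0.23). Nkiras1 was called with the array number as a block within total RNA (0.0181). That block also gave 4 higher and 2 lower receptors, 1 and 4 adaptors and kinases, 0 and 1 further subunits and inhibitors and 5 and 6 targets, with 5.63% of all genes called.

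Whether TGF-b1 acted differently on newly made and total RNA was tested as the difference of the 2 effects. None of the 8 genes was called by limma (0.066% of all genes were, 0.011% in the positive and 0.055% in the negative direction), and 1 of 8 had an unadjusted p under 0.05 (2.92% of all genes). This was Nfkbiz, whose effect was -0.20 in newly made and -0.64 in total RNA, a difference of 0.44 ± 0.18 (95% interval 0.07 to 0.81, unadjusted p = 0.0242, adjusted p = 1). The other 7 differences lay between -0.03 and 0.25. The count remained 0 under each alternative and without each array. Of the pathway lists, 1 target gene was called, Ccl20, which fell further in newly made RNA (difference -1.55 ± 0.21, adjusted p = 0.00757), and 0 of the ligands, receptors, adaptors and kinases or further subunits and inhibitors passed in limma (1, 0, 1 and 0 had p under 0.05 unadjusted). The smallest p in those lists belonged to Tnf (0.41), Cd40 (0.31), Ikbke (-0.47) and Tnip2 (0.22), each with an adjusted p of 1.

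Newly made RNA was also set against total RNA within the control cells, which compares each transcript's level among molecules made in the last 2 h with its level overall. Of the 8 genes, 7 were called (44% of all genes were), 3 higher (17.2% of all genes) and 4 lower (26.8%). All 8 lay above the table's median level, and among genes above it 72.4% were called, so most such genes were called too. The same 7 had an unadjusted p under 0.05 (49.4%), and all 7 had groups without overlap (50.1% of all genes). Higher in newly made RNA were Nfkbiz, Tnfaip3 and Nfkbia, and lower were Rela, Relb, Nfkb2 and Bcl3. All values compared are those given above for the 2 control groups. The 3' control probe set of Gapdh exceeded its 5' one, a sign of how much transcript length is kept, by 2.67 to 3.72 log2 units in newly made controls and by 1.63 to 1.94 in total controls. For beta-actin these were 2.00 to 3.21 and 1.34 to 1.50. The part of RNA length in these differences was not tested.

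Nfkbiz, at 11.78 to 11.96 in newly made and 10.67 to 10.86 in total control RNA, was 2.14-fold higher (log2 difference 1.10 ± 0.12 SE, limma adjusted p = 1.6e-06), and its other probe sets had 1.25 and 1.74. Tnfaip3 was 1.90-fold higher (0.93 ± 0.12, adjusted p = 8.95e-06). Its dimmer probe set had -0.33 and was not called (adjusted p = 0.153), and the mean of both gave 0.30 (adjusted p = 0.0669), so that the call rests on 1 probe set. Nfkbia was 1.29-fold higher (0.37 ± 0.13, adjusted p = 0.0255). That call was lost without newly made control array 1 (0.0786) or 2 (0.0951) and total control array 1 (0.0621) or 2 (0.0904), while its 4 other probe sets had 0.25 to 0.71.

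Nfkb2, at 7.27 to 7.41 in newly made and 8.52 to 8.66 in total control RNA, was 2.35-fold lower (-1.23 ± 0.11, limma adjusted p = 1.06e-07), whereas its second probe set had -0.24 (adjusted p = 0.26). Bcl3 was 2.19-fold lower (-1.13 ± 0.12, adjusted p = 8.05e-07). Rela was 1.87-fold lower (-0.90 ± 0.17) and Relb 1.51-fold lower (-0.59 ± 0.15). Nfkbie was not called with its main probe set (-0.10 ± 0.14, adjusted p = 0.619), which overlapped between the groups, but its dimmer one had -0.49 (adjusted p = 0.00276) and the mean of both -0.30 (adjusted p = 0.0387). Centring each array on its median moved the median of all genes from -0.08 to 0.03 and turned the sign of Nfkbie (0.01), while the signs of the 7 called genes stayed as they were.

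The other pathway genes are read against the 17.2% higher and 26.8% lower (44% called) among all genes in this comparison. Receptors had 5 of 12 higher and 2 lower, with Tlr4, the lipopolysaccharide sensor, at 2.16 ± 0.20, Il1r1 at 1.58 ± 0.12 and Tnfrsf1b at 1.32 ± 0.14, and with the lymphotoxin receptor gene Ltbr at -1.54 ± 0.14. Adaptors and kinases had 7 of 17 higher and 2 lower, with the TAK1-binding gene Tab3 (1.86 ± 0.13), the ubiquitin ligase gene Traf6 (1.75 ± 0.12) and Birc2 (1.30 ± 0.11) higher and the TNF receptor adaptor gene Tradd lower (-1.22 ± 0.14). Of 13 further subunits and inhibitors 4 were higher, among them the deubiquitinase genes Otud7b (0.82 ± 0.11) and Cyld (0.79 ± 0.13), and 5 lower, among them Commd1 (-2.03 ± 0.14), whose product promotes p65 breakdown, and the IkB-beta gene Nfkbib (-1.12 ± 0.12). Targets had 11 of 33 higher and 6 lower, with Cflar (1.89 ± 0.21) and Ptgs2 (1.47 ± 0.14) higher and Sod2 (-1.90 ± 0.11) and Tapbp (-1.89 ± 0.12) lower. This balance depends on the scaling (18 and 5 with median centring, 16 and 5 with quantile normalization). All genes moved as well, from 3131 higher and 4877 lower to 3828 and 4035 with median centring. With quantile normalization they had 3893 and 4256. Of 9 ligands 0 were higher and 1 lower, Il18 (-0.97 ± 0.13).

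In NM18 cells with ns-siRNA, 40 h of TGF-b1 gave 3 calls among the 8 genes (30.7% of all genes were called): Rela was higher (13.2% of all genes), and Bcl3 and Nfkbiz were lower (17.5%). Among genes above the table's median level 50.1% were called, a share that 3 of 8 does not exceed. Nfkbie and Tnfaip3 lay below that level in NM18 cells. An unadjusted p under 0.05 was seen for 5 of 8 genes, against 38.3% of all genes. The 3' over 5' difference of beta-actin lay at 0.097 to 0.14 log2 units with TGF-b1 and at 0.17 to 0.21 without, groups that did not overlap, and its part in the changes was not tested. Rela had 11.03, 11.07 and 11.03 with TGF-b1 against 10.56, 10.74 and 10.59 without, a narrow group above all untreated arrays. It was 1.33-fold higher (log2 change 0.42 ± 0.07 SE, 95% interval 0.26 to 0.57, limma adjusted p = 0.000812). Bcl3 had 8.47, 8.31 and 8.29 against 8.86, 8.85 and 8.71, with no overlap, a 1.37-fold lower level (-0.45 ± 0.09, adjusted p = 0.00208). Both calls held without each single array and under each alternative setting.

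Nfkbiz had 10.26, 10.39 and 10.59 with TGF-b1 against 10.62, 10.90 and 10.88 without. The groups did not overlap, by a gap between TGF-b1 array 3 and untreated array 1 that is smaller than the spread within either group, and the change was -0.38 ± 0.12 (limma adjusted p = 0.0334). Its call was lost without untreated array 2 (0.1) or 3 (0.108), without TGF-b1 array 1 (0.134) or 2 (0.0853), and with quantile normalization (0.0503). The second probe set had -0.43 (adjusted p = 0.0451).

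Tnfaip3 was read in NM18 cells only by the probe set that was the dimmer one in NMuMG cells. Its NM18 group means (7.07 to 7.54) lay below the table's median gene (7.79). It had 7.80, 7.31 and 7.53 with TGF-b1 against 7.18, 7.06 and 7.01 without. All TGF-b1 arrays were higher, yet the change of 0.46 ± 0.17 was not called (limma adjusted p = 0.0659). It passed with only the arrays compared (0.0145) and without TGF-b1 array 2 (0.0401). Nfkb2 had 9.20, 9.19 and 9.33 against 8.69, 9.14 and 9.04, likewise without overlap and not called (0.28 ± 0.11, adjusted p = 0.0674), while its second probe set had 0.38 (adjusted p = 0.0182). It passed with median centring (0.03), quantile normalization (0.0155), the mean of its probe sets (0.00298) and without untreated array 2 (0.0203). In all 5 of 8 genes had separate groups, as did 41.8% of all genes. Same-numbered NM18 arrays deviated together, and with the number as a block 5 of 8 genes were called (38.6% of all genes), the added ones being Tnfaip3 (adjusted p = 0.00964) and Nfkb2 (0.0251).

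The classical inhibitors showed no call at 40 h. Nfkbia had 12.30, 11.60 and 11.84 with TGF-b1 against 12.14, 11.83 and 11.61 without, fully overlapping (0.05 ± 0.21, 95% interval -0.41 to 0.51), and its 3 other probe sets had 0.05 to 0.14. Nfkbie had 7.79, 7.20 and 7.79 against 7.37, 7.50 and 7.61, the TGF-b1 arrays lying on both sides of the untreated ones (0.09 ± 0.18). Relb had 8.36, 8.42 and 8.40 against 8.15, 8.67 and 8.43, a narrow group inside the untreated range (-0.02 ± 0.11).

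**Figure D2:**
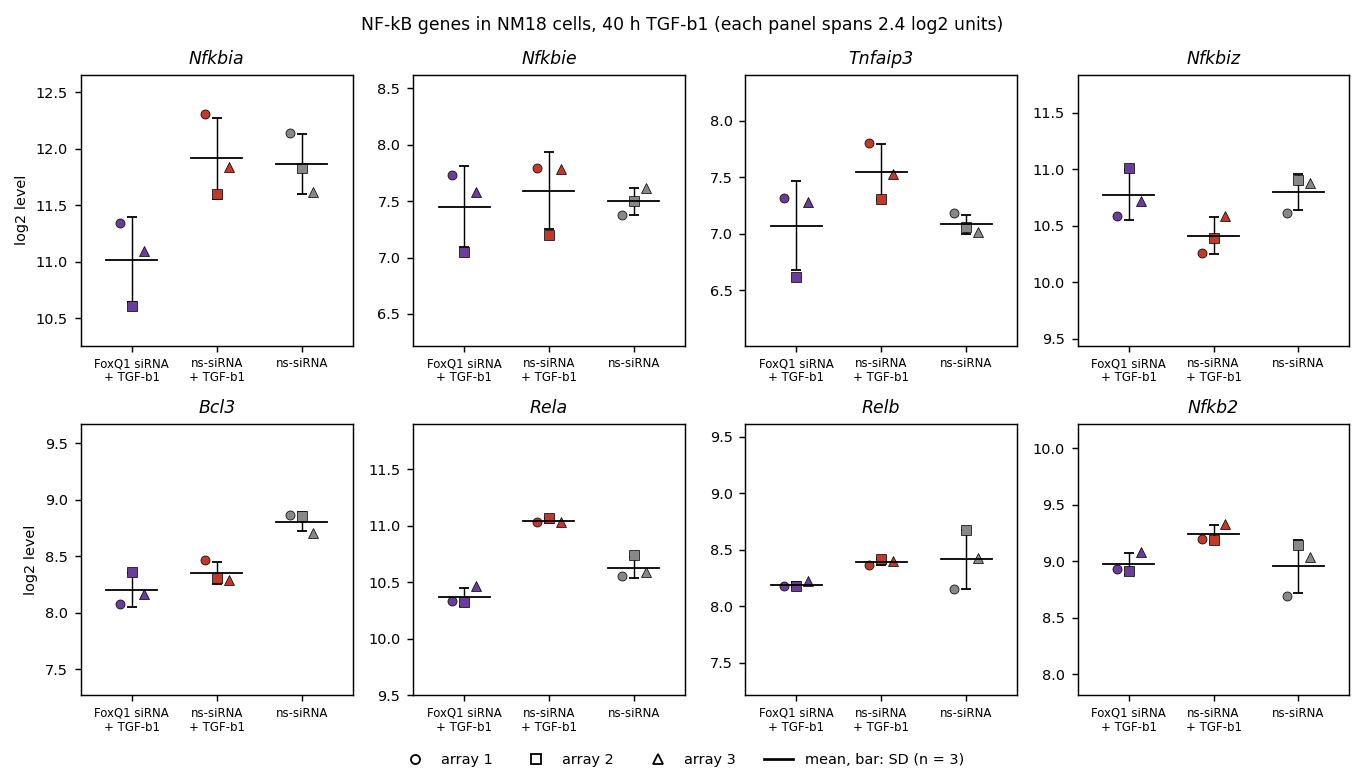
Log2 levels of the 8 measured NF-kB genes in NM18 cells, left to right FoxQ1 siRNA with TGF-b1, ns-siRNA with TGF-b1 and ns-siRNA alone; symbols are single arrays, lines the means and bars the SD (n = 3). Rela is high in the 3 arrays of ns-siRNA with TGF-b1 (11.03 to 11.07), and Nfkbia is low in the 3 FoxQ1 siRNA arrays (10.61 to 11.34).

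Upstream at 40 h, 3 of 12 receptors were higher and 3 lower, where 13.2% of all genes were higher and 17.5% lower. Tnfrsf1b had 8.28, 7.91 and 8.11 with TGF-b1 against 7.36, 7.39 and 7.14 without (0.81 ± 0.11, limma adjusted p = 0.000214), and the TWEAK receptor gene Tnfrsf12a had 0.35 ± 0.08. Tlr3 (-0.50 ± 0.10) and Tlr4 (-0.38 ± 0.08) were lower. Of 16 adaptors and kinases 3 were higher and 4 lower (5 and 4 with quantile normalization, where 32.4% of all genes were called). Map3k14, the NIK kinase that starts p100 processing, was higher (0.66 ± 0.11), and Ikbke was lower (-0.98 ± 0.12), as was Tab1 (-0.29 ± 0.07). Traf6 was higher by 0.32 ± 0.06 (adjusted p = 0.00123), a call lost with the mean of its probe sets (0.13, adjusted p = 0.087).

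Of 10 further subunits and inhibitors 4 were higher, Otud7b (0.61 ± 0.12), Tnip2 (0.49 ± 0.08) and Nfkbib (0.36 ± 0.08) among them, and 1 was lower, Commd1 (-0.53 ± 0.07). The 32 targets had 9 higher and 10 lower, beside the same 13.2% and 17.5% of all genes. The chemokine genes Cxcl5 (-4.17 ± 0.28) and Ccl20 (-3.61 ± 0.27) and the acute-phase gene Saa3 (-1.65 ± 0.12) were lower, and Ptgs2, which encodes the prostaglandin enzyme COX-2, was higher (2.93 ± 0.18). Of 9 ligands 0 were called by limma, 0 had an unadjusted p under 0.05, and the smallest p was that of Il18 (0.24, adjusted p = 0.182, 0.00251 without untreated array 2).

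The last question was what FoxQ1 siRNA did to these genes while TGF-b1 was present. Nfkbia and Rela were lower, and 0 of 8 were higher, so 2 of 8 were called (19.6% of all genes were, 8.28% lower and 11.3% higher). Among genes above the table's median level 34% were called, a share that 2 of 8 does not exceed. An unadjusted p under 0.05 was seen for 5 of 8 (30.2% of all genes). This comparison uses the same ns-siRNA arrays with TGF-b1 as the 40 h comparison, with the opposite sign, so a high or low value there moves both. The groups were separate for 4 of 8 genes, against 34.7% of all genes. The 3' over 5' difference of beta-actin also separated them, at 0.22, 0.39 and 0.15 log2 units with FoxQ1 siRNA (arrays 1 to 3) against 0.14, 0.097 and 0.12 with ns-siRNA, whereas that of Gapdh overlapped (-0.16 to -0.073 against -0.20 to -0.12). The part of RNA length in the changes was not tested. Without FoxQ1 siRNA array 2, the highest for beta-actin, Nfkbia had a log2 change of -0.69 (limma adjusted p = 0.0321) and Rela of -0.65 (limma adjusted p = 0.000295).

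Nfkbia had 11.34, 10.61 and 11.09 with FoxQ1 siRNA against 12.30, 11.60 and 11.84 with ns-siRNA. Array 2 was the lowest in both groups, and even the highest FoxQ1 siRNA array lay below the lowest ns-siRNA array. The level was 1.86-fold lower (log2 change -0.90 ± 0.21 SE, 95% interval -1.36 to -0.44, limma adjusted p = 0.0107). Without single arrays the change ranged between -1.06 and -0.69, with an adjusted p of at most 0.0493, and the replicate block gave 0.000276. The 3 other probe sets of the gene, each measured on its own scale, were also lower without overlap. They had -0.67, -0.99 and -1.09 (adjusted p = 0.0249, 0.0135 and 0.00902 over all probe sets).

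**Figure D3:**
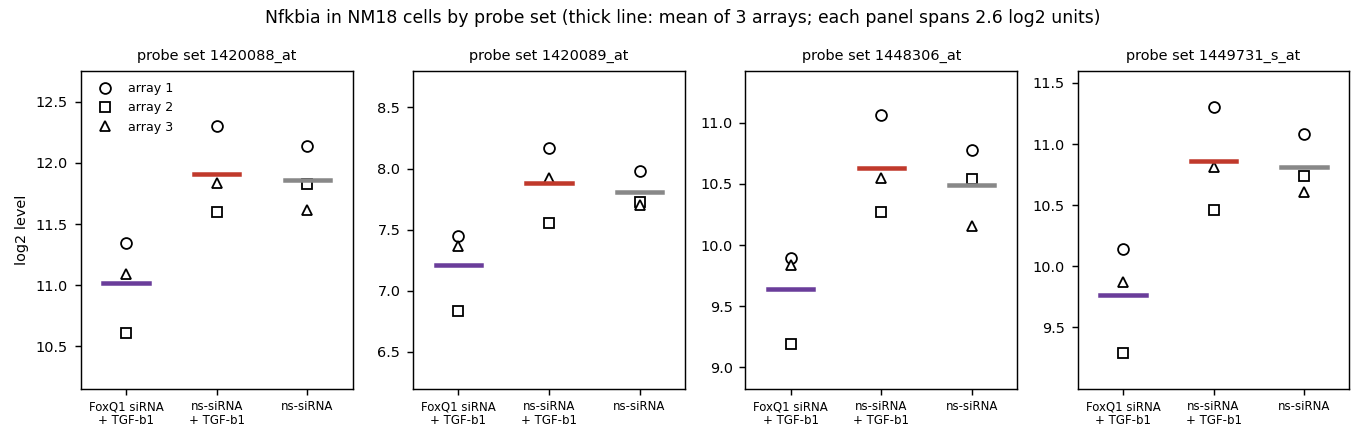
Log2 levels of the 4 Nfkbia probe sets in NM18 cells (panels) for FoxQ1 siRNA with TGF-b1, ns-siRNA with TGF-b1 and ns-siRNA alone; symbols are single arrays, lines the means of 3. In each panel all FoxQ1 siRNA arrays lie below all other arrays, for the main probe set at 10.61 to 11.34 against 11.60 to 12.30.

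Rela had 10.33, 10.32 and 10.46 with FoxQ1 siRNA against 11.03, 11.07 and 11.03 with ns-siRNA, narrow groups that lay far apart. It was 1.59-fold lower (-0.67 ± 0.07, 95% interval -0.83 to -0.52, limma adjusted p = 6.15e-05), and this call held without each array and under each setting. Rela has a single probe set on these arrays, so no second measurement of it was at hand.

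Tnfaip3 had 7.31, 6.62 and 7.28 with FoxQ1 siRNA against 7.80, 7.31 and 7.53 with ns-siRNA (-0.47 ± 0.17, limma adjusted p = 0.0822). Array 2 was the lowest of both groups, and the groups overlapped at its ns-siRNA value. Nfkbie had 7.73, 7.05 and 7.58 against 7.79, 7.20 and 7.79, again with array 2 lowest in both and the groups overlapping (-0.14 ± 0.18). Nfkbiz had 10.59, 11.02 and 10.72 against 10.26, 10.39 and 10.59 (0.36 ± 0.12, adjusted p = 0.0627), touching at the highest ns-siRNA array, and its second probe set had 0.23. It passed with median centring (0.0465) and without FoxQ1 siRNA array 1 (0.0408) or ns-siRNA array 3 (0.0437).

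Nfkb2 had 8.93, 8.91 and 9.08 with FoxQ1 siRNA against 9.20, 9.19 and 9.33 with ns-siRNA, without overlap (-0.27 ± 0.11, limma adjusted p = 0.115). Relb had 8.18, 8.18 and 8.22 against 8.36, 8.42 and 8.40, also without overlap (-0.20 ± 0.11, adjusted p = 0.237). Bcl3 had 8.08, 8.37 and 8.16 against 8.47, 8.31 and 8.29, overlapping (-0.15 ± 0.09, adjusted p = 0.28). With the array number as a block, 5 of 8 genes were called (28.4% of all genes), the added ones being Nfkbiz (higher, adjusted p = 0.00876), Tnfaip3 (lower, 0.0121) and Nfkb2 (lower, 0.0443). A fit on only the arrays compared gave 4 of 8 (20.3% of all genes), adding Nfkb2 (0.0335) and Relb (0.0407). Nfkb2 also passed with quantile normalization (0.0393) and the mean of its probe sets (0.0146).

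**Figure D4:**
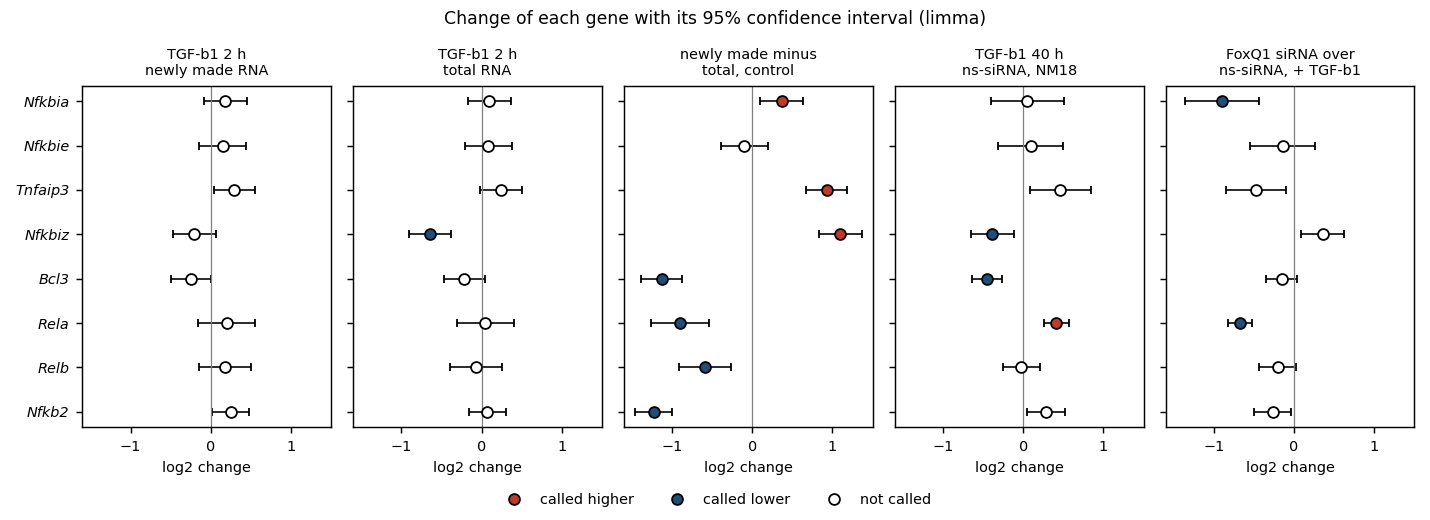
Log2 change of each measured NF-kB gene (points) with its 95% confidence interval (bars, limma) in 5 comparisons, filled where called at adjusted p under 0.05. Nfkbiz is lower under TGF-b1 in total RNA of NMuMG cells at 2 h (-0.64) and in NM18 cells at 40 h (-0.38). The 40 h call was lost in 4 of the 6 fits without a single array. Nfkbia (-0.90) and Rela (-0.67) are lower under FoxQ1 siRNA.

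Of the 32 target genes, 1 was higher and 8 lower under FoxQ1 siRNA, against 11.3% higher and 8.28% lower among all genes. Without ns-siRNA TGF-b1 array 3 there were 0 higher and 5 lower (15.5% of all genes called), and with quantile normalization 2 and 7 (21.5%). Cxcl10, an interferon-inducible chemokine gene, had 7.12, 6.81 and 6.56 against 9.25, 8.71 and 8.28 (-1.91 ± 0.27, limma adjusted p = 0.000526). Csf1, the macrophage growth factor gene, had 10.20, 9.54 and 10.11 against 11.50, 11.39 and 11.16 (-1.40 ± 0.16), and the stress gene Gadd45b had 10.71, 10.32 and 10.83 against 11.92, 11.66 and 11.80 (-1.17 ± 0.15). For these 3 genes, as for the monocyte chemokine gene Ccl2 (-1.07 ± 0.17), all FoxQ1 siRNA arrays lay below all ns-siRNA arrays with TGF-b1. The 1 gene higher was Cxcl5, at 9.06, 9.86 and 8.58 against 8.47, 8.26 and 7.66 (1.03). The median change of the targets was -0.11, against 0.00 for all genes.

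**Figure D5:**
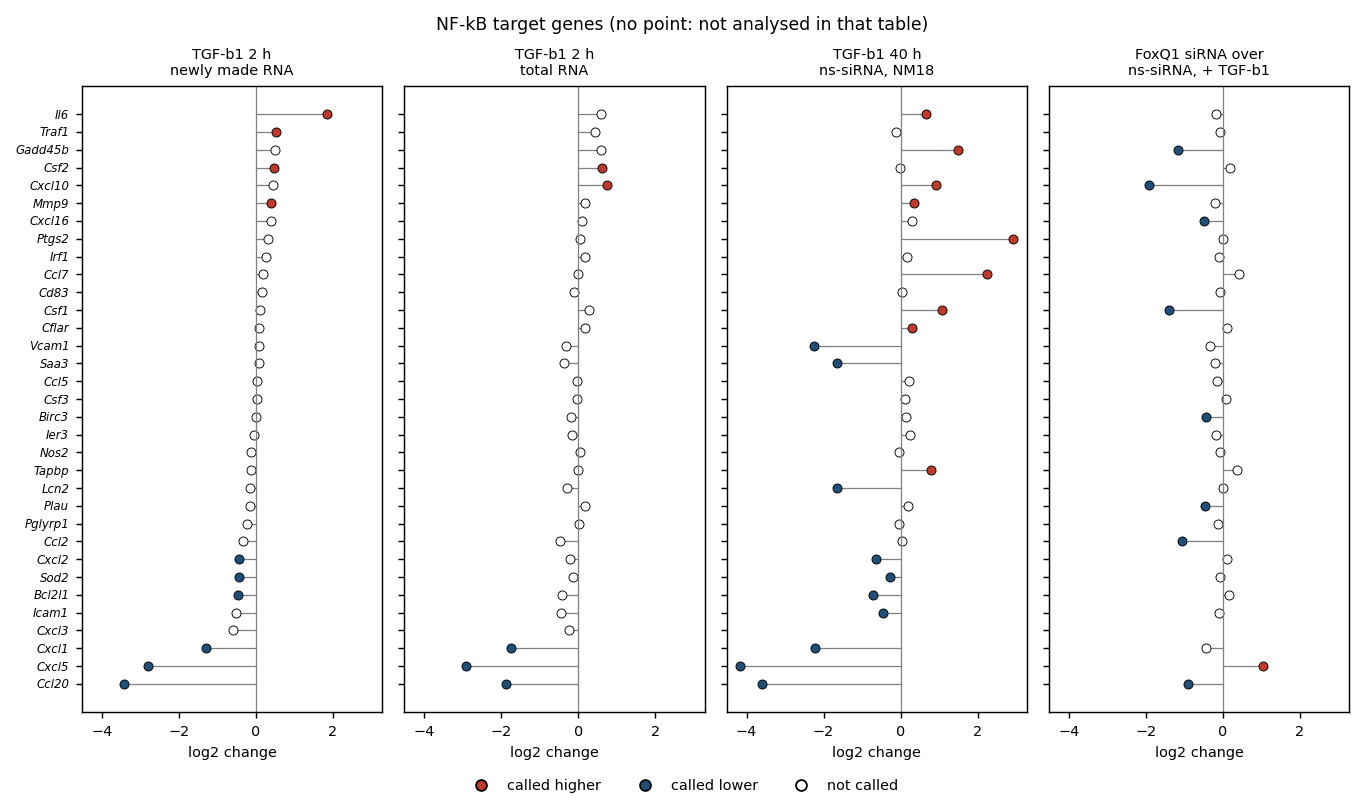
Log2 change of each NF-kB target gene in 4 comparisons, filled red where called higher, filled blue where called lower and open where not called. Ccl20 and Cxcl5 fall in the first 3 panels (-3.43 and -2.80, -1.88 and -2.90, -3.61 and -4.17), and under FoxQ1 siRNA 8 targets are lower and 1 is higher.

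Beside the same share of all genes, 3 of 12 receptors were higher under FoxQ1 siRNA, the TNF receptor 1 gene Tnfrsf1a (0.41 ± 0.08), Il1r1 (0.50 ± 0.14) and Ltbr (0.35 ± 0.08), and 1 was lower, Tnfrsf1b (-0.40 ± 0.11). The calls of Tnfrsf1b, Il1r1 and Ltbr were lost without ns-siRNA TGF-b1 array 1 (limma adjusted p = 0.116, 0.102 and 0.0519). Those of Tnfrsf1b and Il1r1 were also lost without array 3 of that group (0.0715 and 0.0873) or FoxQ1 siRNA array 2 (0.0869 and 0.0768). Of 16 adaptors and kinases 1 was higher, Tradd (0.37 ± 0.07), and 1 lower, Tab2, which couples TRAF6 to the TAK1 kinase. Tab2 had 10.39, 10.31 and 10.52 against 11.13, 10.99 and 11.09 (-0.66 ± 0.07, adjusted p = 8.62e-05). Of 10 further subunits and inhibitors and of 9 ligands 0 passed in limma (4 and 0 had p under 0.05 unadjusted). Nkiras2 (0.20, adjusted p = 0.068) and Il1b (-0.12, adjusted p = 0.324) were nearest. The block called 3 of the 10 higher and 1 lower, where it called 28.4% of all genes.

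Set against untreated ns-siRNA cells, FoxQ1 siRNA with TGF-b1 had 3 of 8 genes called, all lower (37.9% of all genes were called, 18.6% lower and 19.3% higher). Among genes above the table's median level 61.6% were called. Bcl3 was 1.52-fold lower (log2 change -0.61 ± 0.09, limma adjusted p = 0.000191), Nfkbia 1.80-fold lower (-0.85 ± 0.21, adjusted p = 0.00716) and Rela 1.19-fold lower (-0.26 ± 0.07, adjusted p = 0.0115), and these 3 had separate groups (45% of all genes did). Rela thus ranked highest with ns-siRNA and TGF-b1, then untreated ns-siRNA, then FoxQ1 siRNA with TGF-b1, each neighbouring pair being called. For Nfkbia the 2 ns-siRNA groups did not differ beyond their spread, and for Bcl3 the 2 TGF-b1 groups did not. Tnfaip3 (-0.01), Nfkbiz (-0.02), Nfkb2 (0.02), Nfkbie (-0.05) and Relb (-0.22, adjusted p = 0.128, 0.00639 without untreated array 1) were not called. This comparison changes the siRNA and TGF-b1 together, so their shares in it cannot be told apart.

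The pathway lists in this last comparison, where 19.3% of all genes were higher and 18.6% lower, had 3 of 12 receptors higher (Il1r1 0.91, Tnfrsf12a 0.43 and 1 more) and 3 lower (Tlr3 -0.46, Tlr4 -0.45 and 1 more). Adaptors and kinases had 5 of 16 higher, with Tradd at 0.52 and Traf6 at 0.26 (0.08 with the mean of its probe sets, limma adjusted p = 0.318), and 4 lower, with Ikbke at -0.65 and Tab2 at -0.53. Further subunits and inhibitors had 5 of 10 higher, including Tnip2 (0.72), Nkiras2 (0.33) and Zc3h12a (0.24), and 1 lower, Commd1 (-0.49). Targets had 5 of 32 higher and 14 lower, with Ptgs2 at 2.94 and with Ccl20 (-4.51), Cxcl5 (-3.13) and Saa3 (-1.86) lower. Of 9 ligands 0 passed in limma (0 had p under 0.05 unadjusted), with Il18 at 0.25 (adjusted p = 0.149, 0.00165 without untreated array 2).

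Pairs of the 8 genes ran together in some cases and against each other in others, and only a few pairs are named. The arrays include treated and control groups, so group effects and variation between arrays are not separated here. Pearson correlations are given as descriptions over arrays that share a table's processing and, in NMuMG cells, within 1 kind of RNA, because the 2 kinds form separate clusters. Over the 6 newly made arrays, Nfkbia and Nfkbie ran together (r = 0.97), as did Rela and Relb (0.94), whereas Nfkbiz and Nfkb2 ran against each other (-0.92). Over the 6 total arrays the same 3 pairs had -0.15, 0.68 and -0.44, and the closest pair was Nfkbiz with Bcl3 (0.88). Over the 9 NM18 arrays, which include the 3 groups compared above, Nfkbiz and Tnfaip3 ran against each other (-0.89), and the closest pairs were Rela with Nfkb2 (0.74) and Nfkbie with Tnfaip3 (0.73).

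Among all genes that varied over the arrays (SD of at least 0.2), those with the most similar pattern were sought for each member called. In NM18 cells (3977 genes searched, 9 arrays) these were for Nfkbia the chemokine gene Ccl2, Haus3 and Srsf6 (r = 0.97 for each), for Rela Knop1, Gosr2 and Akirin1 (0.97 to 0.98), for Bcl3 Neil3, Etaa1 and Mtmr10 (0.97 to 0.98), and for Nfkbiz Serhl, Ndufa6 and Epn2 (0.95 to 0.97). In NMuMG cells (11418 genes searched, 12 arrays of both kinds of RNA) they were for Nfkbia Vamp3, Csnk1d and Dusp5, for Tnfaip3 Trpc1, Ptpn3 and Homer1 and for Nfkbiz Cdip1, Tgoln1 and Ddias. For Rela they were Cx3cl1, Fn1 and Pdlim1, for Relb Fn1, Arcn1 and Dcaf13, for Nfkb2 Gna12, Capns1 and Acadvl, and for Bcl3 Snapin, Hpx and Apoc2. Within the 6 newly made arrays alone these NMuMG pairs had r = 0.78 to 0.98, and within the 6 total arrays 0.17 to 0.98, the lowest being Nfkb2 with Capns1. Fn1, which encodes fibronectin, was among the 3 nearest genes of both Rela and Relb. Over the 12 arrays Rela and Relb themselves had r = 0.95, a value that includes the difference between the kinds of RNA. Within newly made and total RNA they had 0.94 and 0.68, and Relb with Fn1 had 0.97 and 0.77.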

How the data were processed

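RNA of NMuMG and NM18 cells was measured on Affymetrix arrays. For NMuMG arrays, total RNA and 4sU-marked RNA, enriched by mercury-based chromatography, were amplified in 2 rounds, per the labels' protocols. For NM18 arrays, labelling was from the 3' end of transcripts. The deposited values are log2 expression values per probe set made by the authors. That the scale is log2 rests on their range (2.34 to 14.8 and 4.57 to 14.6). How they were normalized is not stated in the sources used here. The submitters' processing notes name affy 1.18.2 without a role. The 2 tables were treated as separately normalized and tested apart.

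Arrays were grouped by title and treatment label. Of 45101 NMuMG and 22690 NM18 probe sets, 34945 and 20380 had 1 gene symbol in the platform annotation and were used. Comparisons came from 1 moderated linear model per table over all its arrays (limma version 3.58.1 under R version 4.3.3, two-sided) with Benjamini-Hochberg adjustment over all genes. After ±, a value is the standard error. Replicates are described as biological by the submitters, and p-values measure the spread between these arrays, whose number limits the precision. The fit was tested on simulated data.

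Array numbers come from the labels. Deviations of same-numbered arrays from their group means correlated at 0.16 to 0.61 in NM18 cells, at 0.34 to 0.73 within newly made and at 0.12 to 0.41 within total RNA, but down to -0.18 between the kinds of RNA, so the number was used as a block in NM18 cells and within each kind of RNA. The other alternatives were median centring, quantile normalization, only the arrays compared, the mean of a gene's probe sets, only genes above the median level, and each array left out. The genes and the 5 pathway lists (93 genes from textbook knowledge) were chosen with earlier results of these data known. Named genes were all 9 listed, Foxq1, up to 4 called genes with the smallest p per list and comparison (else the 1 with the smallest p), and the 3 genes most alike to each called member, to which Cxcl5 under FoxQ1 siRNA was added after its value was seen. Promoters came from RefSeq.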

Additional observations from a re-analysis of the deposited data

Results flagged for a closer look

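Ccl20, a chemokine gene of the target list, had a TGF-b1 effect that differed between the kinds of RNA by limma's test of that difference: -3.43 in newly made and -1.88 in total RNA, a difference of -1.55 ± 0.21 (SE, adjusted p = 0.00757). Its levels were 7.72, 7.40 and 7.48 in TGF-b1 newly made RNA, against 11.14, 10.84 and 10.91 in control newly made RNA. In total RNA they were 8.92, 8.57 and 8.45 with TGF-b1, against 10.48, 10.35 and 10.73 in controls.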

How the results depend on the processing

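Of the values recomputed, 1855 kept their direction and side of the threshold, 32 passed it newly, 44 no longer passed it and 40 turned sign. The count of the 8 genes called stayed within 1.5 times, except in the following settings. The replicate block gave 5 at 40 h (3 without the block), where it called 38.6% of all genes. Under FoxQ1 siRNA it gave 5 (2 without it), where it called 28.4% of all genes. With only the arrays compared, the count under FoxQ1 siRNA was 4 (20.3% of all genes). The block changed no other call of the 8 genes. Leaving out single arrays gave counts of 0 to 0 and 1 to 1 (TGF-b1 at 2 h, newly made and total) and 0 to 0 (their difference). Of all genes, these fits called 4.17% to 7.08%, 1.69% to 1.97% and 0.022% to 0.11%. Newly made against total RNA gave 6 to 7 (40.8% to 44.2% of all genes) and 40 h gave 2 to 3 (25% to 30.2%). FoxQ1 siRNA gave 2 to 3 (13.3% to 17.3%). FoxQ1 siRNA with TGF-b1 against untreated gave 3 to 4 (32.9% to 36.9%). The signs that turned belonged to changes that were not called, and the cause was not tested. Nfkb2 had -0.012 at 2 h in total RNA with the mean of its probe sets, and Tnfaip3 -0.0077 in the difference of TGF-b1 effects with quantile normalization. Median centring and quantile normalization gave 0.0099 and 0.088 for Nfkbie (newly made against total), 0.0029 and 0.025 for Relb (40 h) and 0.0072 and 0.0042 for Tnfaip3 (FoxQ1 siRNA with TGF-b1 against untreated). Without single arrays, 2 h total RNA gave -0.011 to 0.15 for Nfkbie, -0.065 to 0.16 for Rela and -0.13 to 0.026 for Relb. The difference of TGF-b1 effects gave -0.010 to 0.17 for Nfkbia, -0.072 to 0.16 for Nfkbie, -0.013 to 0.17 for Tnfaip3, -0.017 to 0.31 for Rela, -0.11 to 0.072 for Bcl3 and -0.41 to 0.080 for Foxq1. Newly made against total RNA gave -0.17 to 0.034 for Nfkbie. At 40 h they were -0.14 to 0.21 for Nfkbia, -0.0051 to 0.29 for Nfkbie and -0.16 to 0.10 for Relb, and under FoxQ1 siRNA -0.34 to 0.061 for Nfkbie. Against untreated cells they were -0.18 to 0.16 for Nfkbie, -0.14 to 0.070 for Nfkbiz, -0.13 to 0.21 for Tnfaip3 and -0.11 to 0.11 for Nfkb2.

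Over all genes, the 2 h calls in newly made RNA numbered 1116, against 2320 with the replicate block within each kind of RNA and 680 with only the arrays compared, and 758 to 1288 without single arrays. In total RNA they numbered 452, against 701 with the replicate block and 1025 within each kind. For the difference of effects they numbered 12, against 39, 86 and, with quantile normalization, 21, and 4 to 20 without single arrays. Newly made against total RNA had 3131 higher and 4877 lower, or 3828 and 4035 after median centring. Only 3 arrays per group limit the precision, and absolute RNA amounts were not measured.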
